A study of Mus musculus with 8 samples.

Results

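Fatty acids are broken down by beta-oxidation in mitochondria and in peroxisomes, and the genes of both routes were compared in inguinal white adipose tissue (ING WAT) of C57BL/6j mice at postnatal day 21 (PN21, the day of weaning) and postnatal day 98 (PN98, young adulthood). The 39 genes were taken by symbol: 18 genes of mitochondrial beta-oxidation, 10 of peroxisomal beta-oxidation with catalase, and 11 of peroxisome assembly. They were found among 38376 genes, and all 39 belonged to the 16106 genes tested (mean over the 8 mice 1 FPKM or more). Levels are FPKM (fragments scaled to transcript length and to the number of mapped fragments) summed over the transcripts of a gene, so that they can be compared between genes per length.

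Poly(A)+ RNA of the whole depot was sequenced with 1 library per animal. The 4 PN21 animals were numbered m1, m49, m138 and m145, and the 4 PN98 animals m35, m106, m114 and m125. Values of single mice are given in these orders throughout. All mice came from dams on the AIN93G diet and were dissected in a fasted state. In the study the PN98 mice ate either AIN93M or a western style diet from PN42, and the diet of the 4 sequenced PN98 mice is not given in the sources used here. The study's methods state that female mice were killed at PN21 and male mice were weaned, without giving the sex of the sequenced PN21 mice. *Ddx3y*, a Y-linked gene, stood at 18.1 to 22.1 FPKM at PN21 and 19.9 to 25.9 FPKM at PN98. *Xist* stood at 0.247 to 0.832 FPKM at PN21 and at 0 to 0.00704 FPKM at PN98.

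Mitochondrial beta-oxidation takes in long-chain acyl groups through the carnitine shuttle (*Cpt1a*, *Cpt1b*, *Cpt2*), removes acetyl-CoA in a cycle of dehydrogenation, hydration, dehydrogenation and thiolysis, and hands its electrons to the respiratory chain through the electron transfer flavoprotein (*Etfa*, *Etfb*, *Etfdh*). Peroxisomes shorten very long-chain and branched fatty acids that mitochondria do not accept. Their acyl-CoA oxidases pass electrons to oxygen and form hydrogen peroxide, which catalase (*Cat*) removes. The peroxins (*Pex* genes) build the organelle and import its enzymes. Brown and beige adipocytes are rich in mitochondria and burn fatty acids for heat, and inguinal fat of young mice is known to hold beige cells.

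Sequence upstream of a few members is shown because these genes carry the comparison between the routes: *Hadha* and *Hadhb* encode both subunits of the mitochondrial trifunctional protein and are read from neighbouring starts in opposite directions, whereas *Cat* and *Scp2* are peroxisomal genes whose levels were higher in every PN98 mouse. The RefSeq promoter windows (GRCm38.p6, which is the mm10 build) were available for 31 of the 39 members, with none used for *Cpt1b*, *Acaa2*, *Decr1*, *Hsd17b4*, *Abcd2*, *Crat*, *Pex2* and *Pex19*. Capitals mark AGGTCA, the core motif bound by PPAR and related nuclear receptors, the GC box GGGCGG and the CCAAT box CCAAT, each on either strand. No base of these stretches falls under more than 1 of the 3 motifs. The *Hadha* gene (chr5:30118304-30155162, minus strand) and the *Hadhb* gene (chr5:30155248-30184593, plus strand) are separated by 85 bases, printed on the plus strand from chr5:30155163-30155247. The *Cat* stretch is the 243 bases before the outermost annotated start of *Cat* (chr2:103485161-103485403, minus strand). The *Scp2* stretch is the 265 bases before the start of its main protein-coding transcript (chr4:108118533-108118797, minus strand), inside an intron of *Scp2* transcripts that start further upstream.
Hadha to Hadhb: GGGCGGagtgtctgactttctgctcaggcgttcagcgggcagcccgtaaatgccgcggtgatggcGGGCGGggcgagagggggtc
Cat: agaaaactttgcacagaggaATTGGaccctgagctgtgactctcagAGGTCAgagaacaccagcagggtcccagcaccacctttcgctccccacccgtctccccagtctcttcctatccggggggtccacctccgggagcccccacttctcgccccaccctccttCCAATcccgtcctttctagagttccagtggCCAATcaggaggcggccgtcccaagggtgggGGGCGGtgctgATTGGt
Scp2: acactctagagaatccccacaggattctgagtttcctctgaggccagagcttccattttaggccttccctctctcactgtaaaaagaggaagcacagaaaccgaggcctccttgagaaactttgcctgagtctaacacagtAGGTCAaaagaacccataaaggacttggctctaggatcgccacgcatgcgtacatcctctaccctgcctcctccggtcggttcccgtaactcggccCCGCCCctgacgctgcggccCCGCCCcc

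The *Cat* stretch held 1 AGGTCA, 1 GGGCGG and 4 CCAAT matches, the *Scp2* stretch held 1 AGGTCA and 2 GGGCGG matches, and the stretch between *Hadha* and *Hadhb* held 2 GGGCGG matches. Over the whole windows (from 250 bases before to 50 bases after a start), AGGTCA was found in 6 of the 31 members (19.4%; *Acadm*, *Acadvl*, *Cat*, *Cpt1a*, *Echs1* and *Scp2*), against 16.3% of all 32851 promoter windows. The 6 members thus lay on both sides of the comparison, with 4 mitochondrial and 2 peroxisomal genes. GGGCGG was found in 25 of the 31 members (80.6%) against 35.7% of all windows, CCAAT in 13 (41.9%) against 37.4%, and TATAAA in 2 (6.45%) against 13.6%. Neither CACGTG nor AGGTCANAGGTCA was found in a member, against 7.15% and 0.0396% of all windows. A member was counted once if any of its windows held the motif, whereas the shares of all windows count each window. A member with several windows had more chances of a match, so both shares are unlike measures. A match is a description of these letters and was not tested as a binding site.

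Mitochondrial members had the higher levels. Their mean FPKM over the 8 mice ran from 15.2 (*Cpt1a*) to 922 (*Etfb*) with a median of 350, against 16.9 (*Acox3*) to 550.0 (*Scp2*) and a median of 134 for the peroxisomal members, and 6.54 (*Pex2*) to 119 (*Pex16*) and a median of 31.1 for the assembly members. The ages were compared with limma on log2(FPKM + 1), as PN98 minus PN21, with Benjamini-Hochberg adjustment over all 16106 genes. An adjusted p under 0.05 was found for 5.28% of all genes tested (2.35% with higher values at PN98, 2.93% with lower values), and the median log2 difference of all genes was -0.21. Scaling the libraries by the median of ratios or to the sum of nuclear genes moved that median to -0.019 and 0.010, and the same scalings gave -0.11 and -0.071 for the mitochondrial, 0.90 and 0.94 for the peroxisomal and 0.25 and 0.29 for the assembly medians given next.

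Of the 39 members, 2 were higher at PN98 (*Cat* and *Abcd2*, both peroxisomal) and none was lower, against 5.28% of all genes called in either direction. In whole tissue, a change in the number of cells of a type and a change of RNA per cell cannot be told apart. The median log2 difference was -0.34 over the 18 mitochondrial members, 0.67 over the 10 peroxisomal members and 0.026 over the 11 assembly members. Without PN98 m35 the mitochondrial median was -0.047. The differences had a negative sign in 15 of 18 mitochondrial members and a positive sign in 8 of 10 peroxisomal members, against 10790 negative and 5316 positive signs over all genes. In 4 peroxisomal members and 1 assembly member all 4 PN98 values lay above all 4 PN21 values, a pattern found in 6.06% of all genes tested. In 1 mitochondrial member (*Acaa2*) all 4 PN98 values lay below all PN21 values, a pattern found in 1611 of the 16106 genes tested (10%). The plot of log2 differences by member shows most mitochondrial genes to the left of the median of all genes, with *Acads*, *Decr1*, *Eci2* and *Cpt1a* to its right, and all 10 peroxisomal genes to its right.

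**Figure D1:**
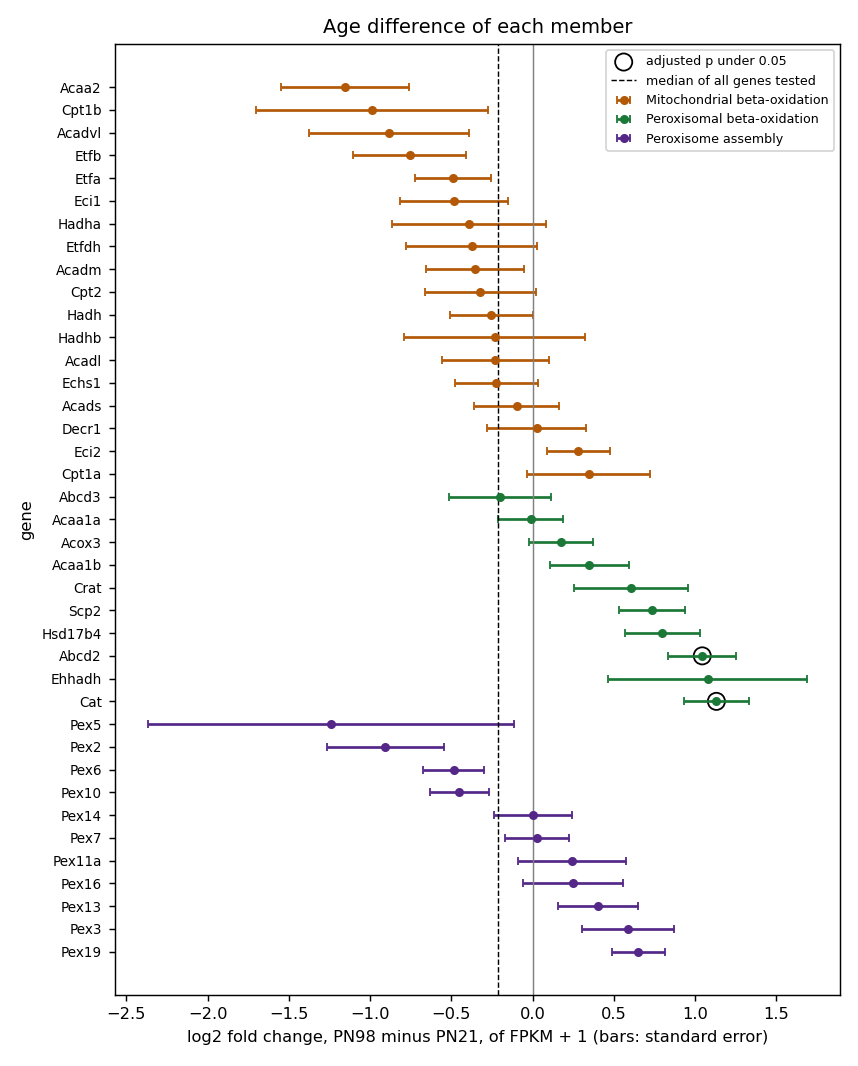
Log2 difference of FPKM + 1 (PN98 minus PN21, x axis) of each of the 39 members (y axis), with the limma standard error as bars. The dashed line is the median of all genes tested (-0.21), and circles mark *Cat* and *Abcd2*, whose adjusted p was under 0.05.

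*Cat*, the enzyme that breaks down hydrogen peroxide, gave the largest called difference among the members. *Cat* was at 251, 218, 202 and 161 FPKM in the 4 PN21 mice and at 375, 513, 393 and 546 FPKM in the 4 PN98 mice. The lowest PN98 mouse was thus above the highest PN21 mouse. The log2 difference was 1.13 (SE 0.20, limma, adjusted p = 0.0214), or 2.19-fold. Both listed *Cat* transcripts are protein coding, and each had a positive difference at the transcript level (1.17 and 1.10), with adjusted p-values of 0.0617 and 0.123 over all transcripts tested.

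*Abcd2* encodes a transporter of the peroxisomal membrane that carries very long-chain acyl-CoA inward. *Abcd2* stood at 48.0, 50.1, 31.2 and 38.6 FPKM at PN21 and at 74.3, 93.2, 108 and 73.6 FPKM at PN98, with no overlap between the ages. The log2 difference was 1.04 (SE 0.21, limma, adjusted p = 0.0308), or 2.06-fold. The other transporter in the group, *Abcd3* (PMP70), stood at 138.5, 142, 102 and 138.5 FPKM at PN21 and at 64.5, 146, 95.2 and 176 FPKM at PN98. The PN98 mice lay on both sides of PN21, and the log2 difference was -0.20 (SE 0.31, adjusted p = 0.694).

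Both calls were lost when certain single mice were left out. Without PN21 m49, m138 or m145 or without PN98 m106 or m114, the adjusted p of *Cat* lay between 0.0517 and 0.0778, and without m1, m49, m138, m145, m106 or m114 that of *Abcd2* lay between 0.0561 and 0.101. The log2 differences stayed between 1.01 and 1.23 for *Cat* and between 0.91 and 1.14 for *Abcd2* in these fits of 7 mice.

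Other peroxisomal enzymes were higher in every PN98 mouse, with an adjusted p above 0.05 that some alternatives brought under it. *Scp2*, whose long product is a thiolase for branched chains and whose short product is a lipid carrier, stood at 401, 533, 315 and 409 FPKM at PN21 and at 554, 648, 729.7 and 811 FPKM at PN98. The log2 difference was 0.74 (SE 0.20, adjusted p = 0.0784). *Hsd17b4*, the bifunctional enzyme that carries out hydration and dehydrogenation of very long and branched chains, stood at 143, 107, 82.6 and 84.7 FPKM at PN21 and at 146, 221, 198 and 154 FPKM at PN98. The lowest PN98 mouse exceeded the highest PN21 mouse by a small margin, and the log2 difference was 0.80 (SE 0.23, adjusted p = 0.0855). Without PN98 m35, both passed the threshold, with adjusted p-values of 0.0304 (*Scp2*) and 0.039 (*Hsd17b4*), and the number of members higher at PN98 was 5. In that fit 691 of all 16106 genes were called higher, against 378 in the main fit. *Scp2* also passed with scaling to nuclear genes (limma adjusted p = 0.0449), array weights (0.0228) and the most abundant transcript (0.0401). *Hsd17b4* passed with array weights (0.0224) and protein-coding transcripts only (0.0456). Array weights called 1151 of all 16106 genes higher. Without any mouse other than m35, the adjusted p lay between 0.0756 and 0.169 for *Scp2* and between 0.0749 and 0.211 for *Hsd17b4*. Both stayed above 0.05 in the remaining alternatives.

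*Ehhadh*, the bifunctional enzyme for straight chains, had a large difference with overlapping ages. It stood at 41.2, 17.1, 43.7 and 12.7 FPKM at PN21 and at 29.3, 136, 26.7 and 79.5 FPKM at PN98. Only m106 and m125 exceeded all PN21 mice, and m35 and m114 lay within the PN21 range. The log2 difference was 1.08 with a wide error (SE 0.61, adjusted p = 0.279). *Crat*, the carnitine acetyltransferase that is found in peroxisomes and mitochondria, was also highest in m106 and m125. *Crat* stood at 273, 271, 217 and 165 FPKM at PN21 and at 189, 444, 294 and 572 FPKM at PN98, with a log2 difference of 0.60 (SE 0.35, adjusted p = 0.288).

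The peroxisomal 3-ketoacyl-CoA thiolases and *Acox3* showed differences that were small against their spread. *Acaa1a* stood at 173, 174, 121 and 163 FPKM at PN21 and at 140.5, 124, 195 and 168 FPKM at PN98 (log2 difference -0.012, SE 0.20, adjusted p = 0.975). *Acaa1b* stood at 54.0, 61.9, 43.3 and 49.1 FPKM at PN21 and at 54.2, 52.5, 64.2 and 104 FPKM at PN98 (log2 difference 0.35, SE 0.24, adjusted p = 0.367). The split of reads between both thiolase genes is uncertain, since 22.6% of the 1590 stretches of 100 bases (the read length) in the main *Acaa1b* transcript stand letter for letter in an *Acaa1a* transcript. *Acox3*, an oxidase of branched chains, stood at 17.4, 14.3, 21.0 and 11.3 FPKM at PN21 and at 18.7, 18.9, 16.9 and 16.6 FPKM at PN98 (log2 difference 0.17, SE 0.20, adjusted p = 0.574).

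**Figure D2:**
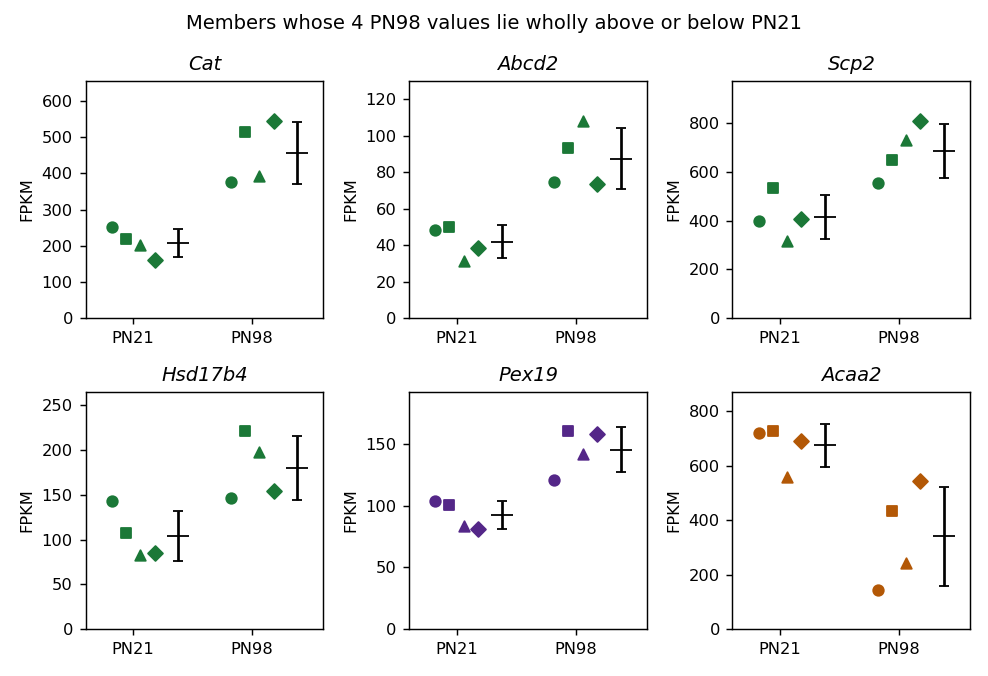
FPKM (y axis, from 0) of the 6 members whose PN98 values all lay above or all below PN21, with 1 symbol per mouse and the mean and SD of each age as a bar. *Cat*, *Abcd2*, *Scp2*, *Hsd17b4* and *Pex19* were higher in all 4 PN98 mice, and *Acaa2* was lower in all 4.

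Mitochondrial beta-oxidation genes did not differ between the ages by the adjusted test. By limma, 0 of 18 had an adjusted p under 0.05, and at an unadjusted p under 0.05 there were 1 lower and 0 higher, against 19.1% lower and 8.18% higher over all genes tested. With array weights in limma, 1 of the 18 (*Acaa2*) was called lower, against 3494 of all 16106 genes. The spread among the PN98 mice was wide. The ratio of the highest to the lowest mouse had a median over the 18 genes of 1.49 at PN21 and 2.85 at PN98, and PN98 had the wider ratio in 16 of 18 genes. For the 10 peroxisomal members these medians were 1.63 and 1.55, with the wider ratio at PN98 in 5 of 10. The heat map of single mice shows this as columns of low values in m35 and m114 and levels near PN21 in m106 and m125.

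**Figure D3:**
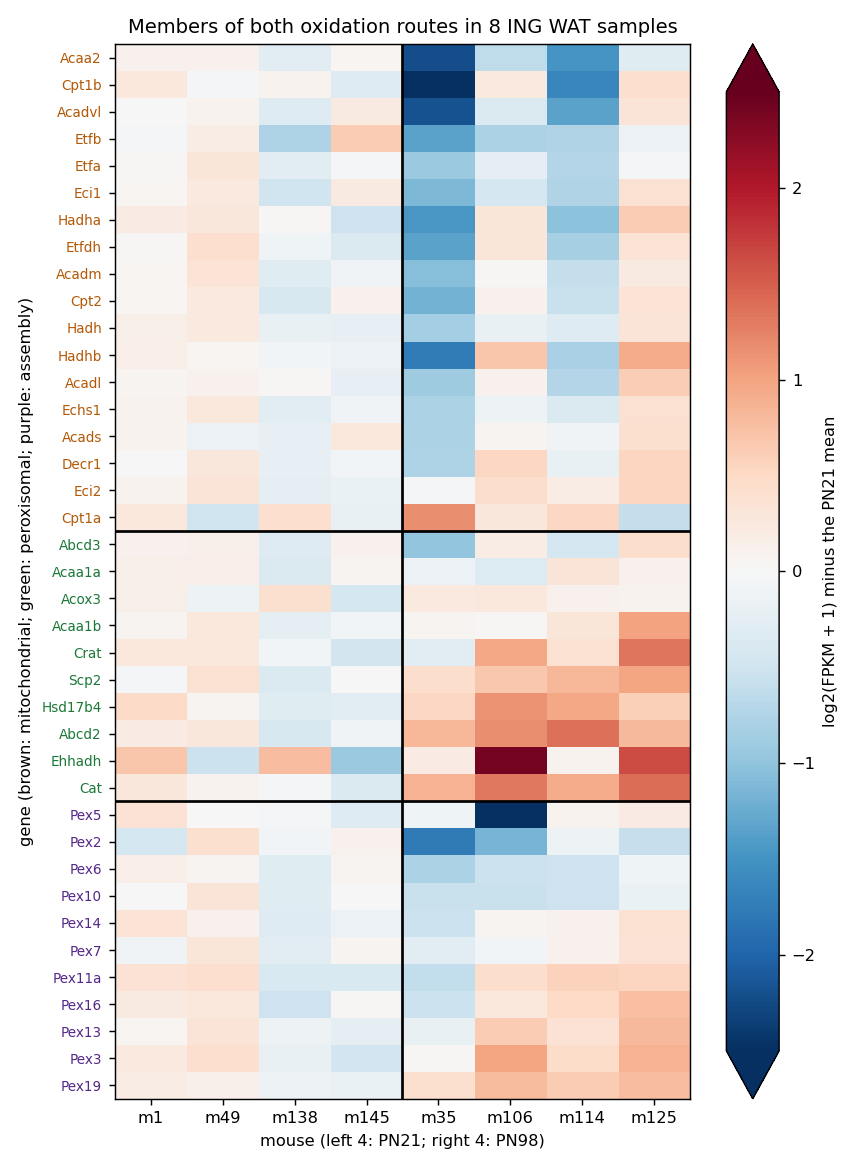
Log2(FPKM + 1) of the 39 members (rows) in 8 mice (columns) as the difference from the PN21 mean of the same gene, with the colour scale ending at 2.5 in either direction. Mouse m35 was the lowest PN98 mouse in 17 of 18 mitochondrial genes, and the dark cell of *Pex5* in m106 is a value listed at 0.

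PN98 mouse m35 was the lowest of the 4 in 17 of 18 mitochondrial members and of all 8 mice in 16 of 18, against 19.2% and 8.11% of all genes tested. Mouse m125 was the highest of the 4 PN98 mice in 17 of 18. In 16 of 18 mitochondrial members both m35 and m114 lay below both m106 and m125, as in 10.7% of all genes tested, while the same held for 4 of 10 peroxisomal and 3 of 11 assembly members. The sources used here give no more than the age and number of each sequenced mouse, and this division of the PN98 mice, noticed in the data, was not tested.

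The thiolase *Acaa2*, which cleaves acetyl-CoA in the last step of the mitochondrial cycle, was the member whose PN98 values all lay below PN21. *Acaa2* stood at 722, 727, 558 and 692 FPKM at PN21 and at 143, 434, 242 and 545 FPKM at PN98. The highest PN98 mouse was just below the lowest PN21 mouse, and the log2 difference was -1.15 (SE 0.40, adjusted p = 0.121). *Acadvl*, the very long-chain acyl-CoA dehydrogenase that opens the cycle, stood at 668, 709, 532 and 778 FPKM at PN21 and at 147, 521, 264 and 829.5 FPKM at PN98. The ages overlapped through m125 alone, and the log2 difference was -0.89 (SE 0.49, adjusted p = 0.267).

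Dehydrogenases for shorter chains lay closer to PN21. *Acadl* stood at 476, 494, 467 and 396 FPKM at PN21 and at 245, 493, 273 and 696 FPKM at PN98 (log2 difference -0.23, SE 0.33, adjusted p = 0.666). *Acadm* stood at 408, 504, 321 and 376 FPKM at PN21 and at 189, 404, 263 and 461 FPKM at PN98 (log2 difference -0.35, SE 0.30, adjusted p = 0.462). In both genes m35 and m114 were below every PN21 mouse. The log2 differences were -0.10 for *Acads* and -0.25 for *Hadh*.

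The carnitine shuttle held the widest spread among the members above 0 in all mice. *Cpt1b*, the muscle and brown fat form of the outer membrane enzyme, stood at 133, 107, 117 and 88.1 FPKM at PN21 and at 12.9, 130.2, 35.02 and 147 FPKM at PN98. The PN98 mice thus ran from far below to above PN21, an 11.4-fold range, and the log2 difference was -0.99 (SE 0.71, adjusted p = 0.384). *Cpt1a*, the liver form of the same enzyme, stood at 15.1, 8.48, 17.0 and 10.8 FPKM at PN21 and at 29.0, 15.4, 18.1 and 7.91 FPKM at PN98 (log2 difference 0.34, SE 0.38, adjusted p = 0.561). For *Cpt1a* m35 was the highest and m125 the lowest of the 8 mice, the reverse of their places for *Cpt1b*. *Cpt2*, the inner membrane enzyme, stood at 122, 141, 89.1 and 128 FPKM at PN21 and at 51.4, 127, 80.5 and 151 FPKM at PN98 (log2 difference -0.32, SE 0.34, adjusted p = 0.547).

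Both subunits of the trifunctional protein moved together from mouse to mouse. *Hadha* stood at 916, 974, 818 and 561 FPKM at PN21 and at 290.0, 985, 390.1 and 1241 FPKM at PN98 (log2 difference -0.39, SE 0.47, adjusted p = 0.602). *Hadhb* stood at 416, 386, 355 and 337 FPKM at PN21 and at 110.2, 603, 213 and 705 FPKM at PN98 (log2 difference -0.23, SE 0.56, adjusted p = 0.806). In both genes m35 and m114 were below, and m106 and m125 above, every PN21 mouse. The *Hadha* to *Hadhb* ratio within a mouse stayed between 1.63 and 2.63 in all 8 mice. Only 2.3% of the summed *Hadha* FPKM and 47.6% of the *Hadhb* FPKM was assigned to transcripts annotated as protein coding, and the transcript with the largest share was a processed transcript for *Hadha* (61.3%) and one with a retained intron for *Hadhb* (52.1%).

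*Eci2*, an enoyl-CoA isomerase that is found in mitochondria and peroxisomes, stood at 111, 132, 88.1 and 93.7 FPKM at PN21 and at 103, 142, 119.6 and 152 FPKM at PN98, with a log2 difference of 0.28 (SE 0.19, adjusted p = 0.363). *Eci2*, *Cpt1a* and *Decr1* (0.024) were the 3 mitochondrial members with a positive sign. The electron transfer genes had log2 differences of -0.49 (*Etfa*, SE 0.23), -0.76 (*Etfb*, SE 0.35) and -0.38 (*Etfdh*, SE 0.40), with adjusted p-values of 0.209, 0.199 and 0.554. The hydratase *Echs1* (-0.22) and the isomerase *Eci1* (-0.48) completed the group, and neither passed the test.

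Peroxisome assembly genes had differences of either sign, 7 positive and 4 negative. By limma, 0 of 11 had an adjusted p under 0.05. At an unadjusted p under 0.05 there were 1 higher (*Pex19*) and 3 lower (*Pex2*, *Pex6* and *Pex10*). Over all genes tested these shares were 8.18% higher and 19.1% lower. With array weights *Pex19* was called higher and *Pex6* and *Pex10* lower, against 1151 higher and 3494 lower of all 16106 genes. *Pex19*, the chaperone that brings membrane proteins to the peroxisome, stood at 104, 100.1, 83.4 and 81.2 FPKM at PN21 and at 121, 160.2, 142 and 158 FPKM at PN98, with no overlap between the ages. The log2 difference was 0.65 (SE 0.16, adjusted p = 0.0573), and without PN98 m35 the adjusted p was 0.0196. *Pex19* also passed without a filter on low values (limma adjusted p = 0.0414), with the filter of the study (0.0473) and over protein-coding transcripts only (0.0479). Without any mouse other than m35, its adjusted p lay between 0.0941 and 0.155. The log2 differences of the subunits of the import machinery with lower values were -0.91 (*Pex2*, SE 0.36), -0.49 (*Pex6*, SE 0.19) and -0.45 (*Pex10*, SE 0.18), with adjusted p-values of 0.157, 0.152 and 0.160.

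*Pex11a*, which takes part in the elongation and division of peroxisomes, stood at 30.6, 31.8, 17.9 and 17.8 FPKM at PN21 and at 15.1, 32.6, 35.96 and 34.99 FPKM at PN98 (log2 difference 0.24, SE 0.33, adjusted p = 0.651). Mouse m35 was the lowest and the other PN98 mice were the 3 highest of all. The import receptor *Pex5* was listed at 0 in PN98 m106, in all 8 of its transcripts, against 27.4 to 45.0 FPKM in the other 7 mice. A value listed at 0 can be a failed estimate, and without m106 the log2 difference of *Pex5* was 0.065 in place of -1.24. The docking and membrane peroxins *Pex3* (0.59), *Pex13* (0.40), *Pex14* (0.0041) and *Pex16* (0.25) and the receptor *Pex7* (0.026) did not pass the test.

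The level of each compartment was summarised for each mouse as the mean of log2(FPKM + 1) over its members, as a description. For peroxisomal beta-oxidation it was 6.74, 6.604, 6.42 and 6.26 in the PN21 mice and 6.69, 7.28, 6.99 and 7.35 in the PN98 mice, so that m35 lay within the PN21 range and the other PN98 mice above it. For mitochondrial beta-oxidation it was 8.10, 8.17, 7.82 and 7.97 at PN21 and 6.88, 8.03, 7.38 and 8.31 at PN98. Within each mouse, the peroxisomal minus the mitochondrial level was -1.36, -1.57, -1.40 and -1.70 at PN21 and -0.19, -0.75, -0.38 and -0.96 at PN98, with no overlap between the ages. Its mean over the 4 PN21 mice was -1.51 (SD 0.16), and its mean over the 4 PN98 mice was -0.57 (SD 0.35), or 0.94 higher in log2 units.

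In summed FPKM, the share of the 10 peroxisomal members in both beta-oxidation groups together was taken, with *Cat* and *Crat* included. It was 17.7%, 16.9%, 17.2% and 14.8% in the PN21 mice and 36.9%, 27.4%, 34.8% and 24.5% in the PN98 mice. The share was highest in m35 and m114, in which mitochondrial members summed to 2817 and 3968 FPKM, against 6343 and 8334 FPKM in m106 and m125 and 5668 to 7822 FPKM at PN21. The peroxisomal members summed to 1179 to 1588 FPKM at PN21 and to 1646, 2396, 2122 and 2702 FPKM at PN98. Mean FPKM at PN21 and PN98 was 414 and 685.5 for *Scp2*, 208 and 457 for *Cat* and 231 and 375 for *Crat*. It was 157.5 and 156.9 for *Acaa1a* and 130 and 121 for *Abcd3*. The share in m106 and m125 thus exceeded PN21 while their mitochondrial sums lay within or above the PN21 range. Since the members were chosen with earlier results of these data known, no p-value is given for these summaries.

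**Figure D4:**
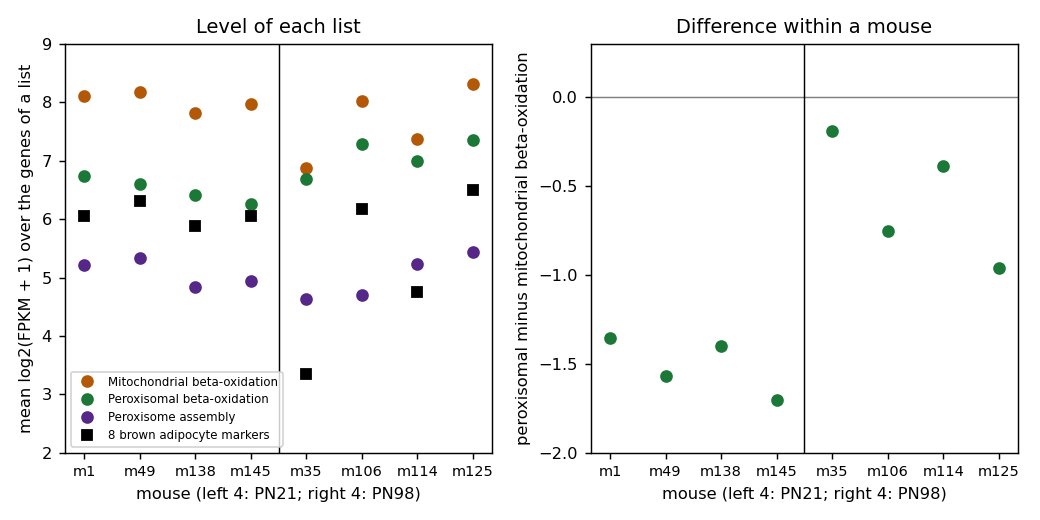
Left, mean log2(FPKM + 1) over the members of each compartment and over 8 brown adipocyte markers (y axis) in each mouse (x axis). Right, the peroxisomal minus the mitochondrial level within each mouse (log2 scale), which lay between -1.70 and -1.36 at PN21 and between -0.96 and -0.19 at PN98.

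Brown adipocyte markers were ordered among the PN98 mice like the mitochondrial members. The mean log2(FPKM + 1) over 8 brown markers was 3.35 in m35, 6.17 in m106, 4.75 in m114 and 6.49 in m125, against 5.88 to 6.32 at PN21. *Ucp1*, the uncoupling protein that defines brown and beige fat, stood at 7.41, 278, 56.3 and 356 FPKM in these PN98 mice and at 544 to 650 FPKM at PN21. None of the 8 brown markers passed the adjusted test by limma, 3 (*Ucp1*, *Dio2* and *Cox7a1*) were lower at an unadjusted p under 0.05 with all PN98 values below PN21, and the median log2 difference was -0.75. The sum of the 8 ran from 3055 to 6473 FPKM at PN21 and from 375 to 4251 FPKM at PN98. A reference list of 15 other mitochondrial genes had a median log2 difference of -0.53, and m35 was the lowest PN98 mouse in 14 of them. Besides genes of the respiratory chain, ATP synthase and citrate cycle, the list held *Vdac1*, *Vdac2*, *Tomm20*, *Tomm22* and *Hspd1*. Of 10 adipocyte markers, 5 were higher at PN98 by the adjusted test and none lower, against 2.35% and 2.93% of all genes tested. Their median log2 difference was 1.05. Their summed level was 5415 to 11630 FPKM at PN21. It was 12520, 14230, 15650 and 22520 FPKM in m35, m106, m114 and m125. Of these sums, *Cfd* alone held 7463 FPKM in PN21 m145 and 12290 FPKM in PN98 m125. Its ages overlapped (limma, adjusted p = 0.4225).

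Markers of other tissues also moved. All 14 skeletal muscle markers tested had a positive sign, with a median log2 difference of 3.30. By limma 3 were higher at PN98 after adjustment, and 12 at an unadjusted p under 0.05, against 8.18% of all genes tested. The sum of the 16 muscle markers found ran from 97.8 to 1030 FPKM at PN21 and from 766 to 5162 FPKM at PN98, with m106 the highest mouse in all 14 tested. *Ckm*, a muscle creatine kinase, was at 135, 487, 173 and 69.8 FPKM in the 4 PN98 mice, in which *Cpt1b* was at 12.9, 130.2, 35.02 and 147 FPKM. The sum of 10 lymphocyte markers ran from 444 to 1078 FPKM at PN21 and was 975, 182, 60.9 and 19.5 FPKM in m35, m106, m114 and m125. Of these 10 markers 0 passed the adjusted test, and 5 were lower at an unadjusted p under 0.05, against 19.1% of all genes tested. Macrophage, endothelial, progenitor and epithelial lists of 8, 5, 6 and 5 tested genes had median log2 differences of -0.18, -0.33, -0.35 and -1.56, with 1 progenitor and 1 epithelial gene lower by the adjusted test. The part of these cell types in the results of the members was not tested.

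Ratios of paired members within a mouse do not depend on the scaling of the library. For 7 pairs, the log2 ratio was compared between the ages by exact permutation (two-sided, 70 splits of the mice, smallest possible p 0.0286), with adjustment over the 7 pairs. *Abcd2* to *Abcd3* was 0.347, 0.354, 0.304 and 0.279 at PN21 and 1.153, 0.636, 1.14 and 0.418 at PN98, with no overlap. The log2 ratio differed by 1.27 (exact p = 0.0286, adjusted p = 0.1). *Cat* to *Hadha* was 0.274, 0.224, 0.247 and 0.286 at PN21 and 1.29, 0.521, 1.01 and 0.440 at PN98, again with no overlap. This log2 ratio differed by 1.53 (exact p = 0.0286, adjusted p = 0.1). In both pairs the ratio was higher in 4 of 4 PN98 mice. Both p-values stood at the smallest possible value of 0.0286. Adjustment over 7 pairs could not bring them under 0.05 unless most other pairs also reached it. The adjusted test therefore cannot decide on these pairs.

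The *Cpt1b* to *Cpt1a* ratio was 8.76, 12.6, 6.90 and 8.18 at PN21 and 0.446, 8.45, 1.93 and 18.6 at PN98. In m35 the liver form thus exceeded the muscle form, and the log2 ratio differed by -1.38 (exact p = 0.371, adjusted p = 0.6). The other pairs were *Hadha* to *Hadhb* (log2 difference -0.16), *Etfa* to *Etfb* (0.27), *Acaa1b* to *Acaa1a* (0.37) and *Ehhadh* to *Hsd17b4* (0.31), with exact adjusted p-values from 0.267 to 0.686 and overlapping ages. The plot of ratios shows the PN98 mice spread widely in *Cpt1b* to *Cpt1a* (SD of the log2 ratio 2.38, against 0.36 at PN21), *Cat* to *Hadha* (0.75 against 0.16) and *Abcd2* to *Abcd3* (0.71 against 0.16).

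**Figure D5:**
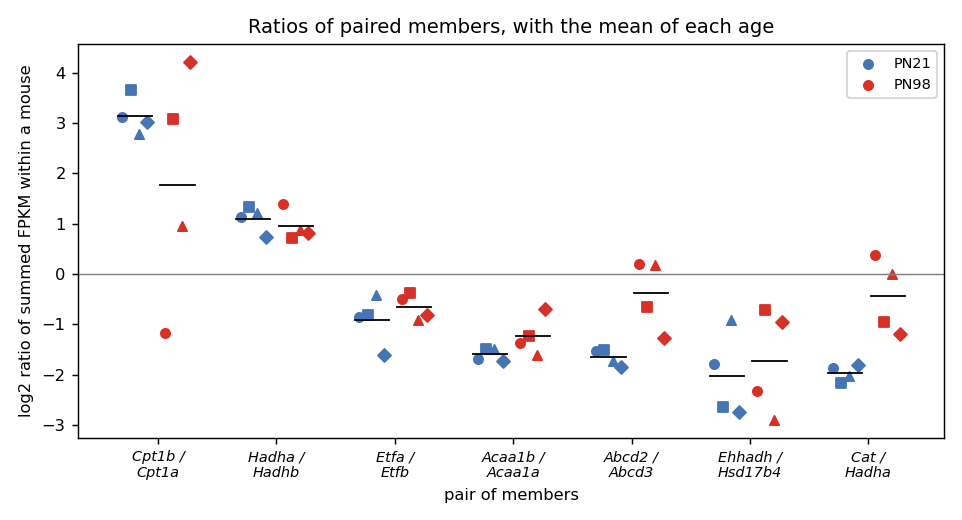
Log2 ratio of summed FPKM (y axis) of 7 pairs of members (x axis) in each mouse, with PN21 in blue, PN98 in red, 1 symbol per mouse and a line at the mean of each age. The ages did not overlap for *Abcd2* to *Abcd3* and *Cat* to *Hadha*.

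Genes of the same pathways that were not among the 39 were taken from fixed lists. Of the 28 other peroxisomal enzymes and transporters reported here, 1 was higher and none lower by the adjusted test. Over all genes tested these shares were 2.35% and 2.93%. At an unadjusted p under 0.05, 6 were higher and 1 lower, against 8.18% and 19.1% of all genes tested. A positive sign was found in 15 and a negative sign in 13, and the median log2 difference was 0.14. The gene with lower values was *Paox*, a peroxisomal polyamine oxidase (log2 difference -0.95, SE 0.24, adjusted p = 0.0589), named after its values were seen. The called gene was *Hacl1*, a lyase of alpha-oxidation. *Hacl1* stood at 37.8, 41.0, 41.5 and 35.6 FPKM at PN21 and at 63.0, 83.6, 57.8 and 64.5 FPKM at PN98. Its log2 difference was 0.76 (SE 0.16, adjusted p = 0.0351), with an adjusted p of 0.15 over protein-coding transcripts only and of 0.0611 to 0.0917 in 7 of the 8 fits that left out a mouse.

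A further list held 14 other genes, put under mitochondrial fatty acid oxidation and its supply. By the adjusted test 1 was higher and none lower, against 2.35% and 2.93% of all genes tested. The median log2 difference was 0.20. The called gene was *Acad11*, an acyl-CoA dehydrogenase whose compartment was not examined here, so that it is not read as a mitochondrial result. *Acad11* stood at 61.3, 37.8, 45.5 and 32.6 FPKM at PN21 and at 113.7, 174, 79.8 and 150.5 FPKM at PN98. Its log2 difference was 1.51 (SE 0.29, adjusted p = 0.027), with no overlap between the ages, and the adjusted p was 0.0649 to 0.0877 without m49, m138, m145, m106 or m125. *Slc25a20*, the carnitine-acylcarnitine carrier of the inner membrane, stood at 85.2, 112, 87.8 and 72.8 FPKM at PN21 and at 47.7, 135, 62.0 and 161 FPKM at PN98 (log2 difference 0.021, adjusted p = 0.978). As for most mitochondrial members, m35 and m114 lay below m106 and m125.

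Among 6 other peroxins, 0 passed the adjusted test by limma (2 higher at an unadjusted p under 0.05), with a median log2 difference of 0.35. Among 16 regulators, 0 passed (1 higher and 2 lower at an unadjusted p under 0.05), with a median of -0.27. Over all genes tested 8.18% were higher and 19.1% lower at that unadjusted threshold. With array weights *Ppargc1a* was called lower (adjusted p = 0.044), as were 3494 of all 16106 genes. *Ppara*, the nuclear receptor that switches on genes of both routes, stood at 13.1, 6.73, 10.7 and 7.84 FPKM at PN21 and at 2.64, 14.7, 3.19 and 12.3 FPKM at PN98 (log2 difference -0.46, adjusted p = 0.569). *Pparg*, the receptor of adipocyte differentiation, stood at 99.0, 133, 101 and 97.5 FPKM at PN21 and at 57.5, 116, 63.0 and 147 FPKM at PN98 (log2 difference -0.26, adjusted p = 0.597). In both receptors m35 and m114 were below every PN21 mouse. The coactivator *Ppargc1a* stood at 3.42, 3.78, 3.05 and 2.102 FPKM at PN21 and at 0.967, 1.91, 1.90 and 2.93 FPKM at PN98 (log2 difference -0.51, adjusted p = 0.209).

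At the level of single transcripts, 103 of the 184 listed transcripts of the members passed the study's own filter, which needs a value above 0 in each mouse and an age mean over 2 FPKM. By limma on log2(FPKM), 0 of the 103 had an adjusted p under 0.05, against 1.36% of the 23170 transcripts tested. At an unadjusted p under 0.05, 12 were higher and 4 lower, or 11.7% higher and 3.88% lower, against 6.94% and 14.8% of all transcripts. For *Scp2* the main protein-coding transcript, which starts after the *Scp2* sequence given above and reads through the thiolase part, had a log2 difference of 0.77 (SE 0.25, adjusted p = 0.163), and a short coding transcript that starts further inside the gene had 0.62 (SE 0.23, adjusted p = 0.196). In 8 of the 39 members less than 50% of the summed FPKM lay in transcripts annotated as protein coding, and 25 of the 39 overlap another annotated gene, so that their totals depend on how reads were assigned.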

How the data were processed

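ING WAT libraries (poly(A)-selected, paired-end reads of 100 bases) came from 4 PN21 and 4 PN98 mice. Per the submitters' processing notes and the study's methods, the authors used CASAVA 1.8.2, FastQC, STAR 2.3.0 on mm10 and Cufflinks 2.1.1, and deposited FPKM values, 1 for each mouse and transcript. The deposited table also holds an average, a standard deviation and a score per transcript, and a further table holds the authors' own comparison (fold changes and p-values), whose results were not used. In 40441 of 91969 transcripts a decimal mark was lost. It was restored from the deposited average, standard deviation and score, which also cover 2 further values that are not used here. The reading was single for 40395 transcripts, 22 were settled by intact values in the second table, and 24 were left out. All 5010 single readings that the second table also lists equalled it in the 8 mice. No per-sample column of another sample was used (0 columns). Read counts are not among the values used here, hence the depth is unknown and counting error cannot be stated. Nuclear genes summed to 813495 to 1204205 FPKM per mouse.

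Transcripts were assigned to genes with GENCODE vM21 (88737 by annotation, 1928 by the single gene listed in the table, 1304 not assigned), and 87.0% had the same start and end there. Sums of FPKM over the transcripts of a gene were taken as log2(FPKM + 1) and compared in limma 3.58.1 (R 4.3.3) for genes with a mean of at least 1, with Benjamini-Hochberg adjustment; fold changes on this scale understate those of low genes. The fit was tested on simulated data. Ratios were tested by exact permutation. Alternatives were a pseudocount of 0.1, other scalings, filters, transcripts, array weights, a trend and leaving out each mouse. The members and lists were chosen with earlier results of these data known. The rule for named genes was: members with an adjusted p under 0.05 or ages that do not overlap, 20 set members, pathway genes with an adjusted p under 0.05, and *Slc25a20*, *Ppara*, *Pparg*, *Ppargc1a* and a further gene that is not reported here; *Pex2*, *Pex5*, *Paox*, *Ckm*, *Ucp1*, *Dio2* and *Cox7a1* were described after their values were seen.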

Additional observations from a re-analysis of the deposited data

Results flagged for a closer look

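Among the 78 groups of 4 values (39 members at 2 ages), 4 held a mouse whose gap to its nearest neighbour exceeded Dixon's 95% limit as a share of the range on the log2(FPKM + 1) scale, by which chance flags about 1 in 20 groups, or 3.9 of 78. *Abcd3* at PN21 was 102.4 FPKM in m138, against 138.5 to 141.5 FPKM in the other PN21 mice. *Pex5* at PN98 was listed at 0 in m106, against 32.1 to 40.3 FPKM in the other PN98 mice. Of all genes tested, 13 were listed at 0 in m106 alone, and 250 were at 0 in exactly 1 mouse. *Pex10* at PN98 was 9.30 FPKM in m125, against 6.82 to 7.08 FPKM in the others. *Pex11a* at PN98 was 15.1 FPKM in m35, against 32.6 to 35.96 FPKM in the others.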

How the results depend on the processing

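No paired analysis was possible because the mice carry their own animal numbers and no number is shared between the ages. Leaving out each mouse moved the median log2 difference between -0.58 and -0.047 for mitochondrial members (main value -0.34; lowest without m125, highest without m35), between 0.51 and 0.86 for peroxisomal members and between -0.082 and 0.19 for assembly members; the number of members higher at PN98 lay between 0 and 5 (main count 2; 5 without m35), and the number lower was 0 in each. The number of all genes called lay between 192 (without m106) and 3598 (without m35), against 850. The peroxisomal minus mitochondrial difference lay between 0.81 and 1.07. With array weights 5 members were higher, 3 lower and 4645 genes called in all. Over protein-coding transcripts only, a setting chosen after seeing the data, 4 members were higher, against 472 of all 11851 genes tested there. Scaling to nuclear genes moved the peroxisomal median to 0.94. The *Etfa* to *Etfb* log2 ratio turned to -0.00213 for the most abundant and for the protein-coding transcripts, and that of *Ehhadh* to *Hsd17b4* lay between -0.032 and 0.70 when a mouse was left out.

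Single genes with small differences changed sign. With median of ratios scaling these were *Acadl* (0.0023), *Acads* (0.13), *Echs1* (0.0081), *Acaa1a* (0.22) and *Abcd3* (0.031), with scaling to nuclear genes *Acadl* (0.038), *Acads* (0.17), *Hadh* (0.014), *Hadhb* (0.035), *Echs1* (0.044), *Acaa1a* (0.25), *Abcd3* (0.067) and *Pparg* (0.0027), with array weights *Acads* (0.035), *Hadhb* (0.27), *Abcd3* (0.00372), *Pex7* (-0.018), *Pex14* (-0.033) and *Ppara* (0.053), and over protein-coding transcripts *Abcd3* (0.15) and *Pex7* (-0.094). When a mouse was left out, the ranges that crossed 0 were -0.26 to 0.13 (*Acads*), -0.62 to 0.27 (*Hadhb*), -0.15 to 0.29 (*Decr1*), -0.13 to 0.095 (*Acaa1a*), -0.42 to 0.064 (*Abcd3*), -1.72 to 0.065 (*Pex5*), -0.082 to 0.13 (*Pex7*), -0.12 to 0.19 (*Pex14*) and -0.26 to 0.32 (*Slc25a20*). The cause of these changes was not tested. *Cat* and *Abcd2* were called in all 9 alternatives that kept 8 mice. *Pex5* could not be fitted with the filter of the study, which drops it for its value at 0.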
